A study of Mus musculus with 4 samples.

Results

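The genes described here are the LIF receptor subunits, the transcription factor STAT3 and a group of its known target genes, 10 genes in all (Lifr, Il6st, Stat3, Socs3, Socs2, Junb, Pim1, Pim3, Icam1 and Bcl3). They were taken by gene symbol from the annotation of the array, where they have 22 of the 22690 probe sets and are 10 of the 12393 genes represented. RNA was measured on 4 Affymetrix arrays from R1 cells, an established mouse embryonic stem cell line. In the knockdown group (2 arrays) the cells carried a lentiviral shRNA against Brg1 (the catalytic ATPase subunit that drives SWI/SNF chromatin remodellers), and in the control group (2 arrays) a lentiviral shRNA against GLUT4. Both groups were harvested 67 h after infection, and the infections were made in duplicate. Nothing in the labels says that the duplicates came from separate cultures, so the p-values measure the spread between these samples only. The control is itself a virus-infected, shRNA-expressing population and not untreated cells.

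Leukaemia inhibitory factor (LIF) is the cytokine that keeps mouse embryonic stem cells undifferentiated in culture. It binds a receptor made of LIFR and gp130 (encoded by Il6st), which activates JAK kinases; these phosphorylate STAT3, which enters the nucleus and binds DNA as a dimer. Its targets include Socs3, whose protein shuts the receptor off again, along with kinases of the PIM family and several transcription regulators. The arrays measure RNA, so neither the phosphorylation of STAT3 nor its binding to DNA was measured.

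STAT3 dimers bind the consensus TTCNNNGAA, which reads the same on both strands. It was searched in the RefSeq promoter windows of assembly GRCm38.p6, each running from 250 bases before to 50 bases after an annotated transcription start. Of the 10 genes, 9 had windows, 11 in all, and Socs2 had none and was not searched. The motif was found in 2 of the 11 windows, those of Icam1 and Socs3, where 8.3% of all 32851 windows held it. The match in Icam1 lies 42 to 34 bases before the start and that in Socs3 154 to 146 bases before it. The 250 bases before the start are printed for these genes and for Pim1, because Icam1 and Pim1 are the members that passed the test and the Socs3 probe sets were all lower in the knockdown. Each is 5′ to 3′ on the strand of the gene, and capitals mark the match. The table has 2 windows for Pim1, neither with a match, and the window with the lower coordinates is shown. A match is a description of the sequence and does not show that STAT3 binds there.
Icam1, chr9:21015690-21015939, plus strand: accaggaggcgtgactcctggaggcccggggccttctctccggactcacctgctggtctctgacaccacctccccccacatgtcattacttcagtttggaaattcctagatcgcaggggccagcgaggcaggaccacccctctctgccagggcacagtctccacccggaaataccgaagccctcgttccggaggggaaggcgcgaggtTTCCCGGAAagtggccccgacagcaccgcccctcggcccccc
Socs3, chr11:117969367-117969616, minus strand: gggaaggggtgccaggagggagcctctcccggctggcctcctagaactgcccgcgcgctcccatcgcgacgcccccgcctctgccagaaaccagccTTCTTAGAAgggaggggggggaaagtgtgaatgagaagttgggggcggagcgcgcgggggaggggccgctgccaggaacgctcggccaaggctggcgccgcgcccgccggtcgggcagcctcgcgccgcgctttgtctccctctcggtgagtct
Pim1, chr17:29490535-29490784, plus strand: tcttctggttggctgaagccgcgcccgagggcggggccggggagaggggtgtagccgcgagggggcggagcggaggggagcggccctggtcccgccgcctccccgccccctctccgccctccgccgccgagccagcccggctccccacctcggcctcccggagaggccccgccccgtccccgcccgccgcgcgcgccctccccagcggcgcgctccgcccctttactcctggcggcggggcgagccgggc

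The arrays had been scaled to a common level before deposit, each to a trimmed mean of 200.1 signal units. Smarca4, which encodes Brg1, read 652.1 and 621.5 in the knockdown and 1186.6 and 1213.6 in the control, so the RNA was reduced in part. Differences are given as knockdown minus control on the scale log2(signal + 20.0), which understates the change of dim genes. A gene was called changed at an adjusted p under 0.05 (limma with Benjamini-Hochberg adjustment over all 7815 genes that passed a filter on dim signals). By that measure 14.4% of the tested genes changed, 9.33% higher and 5.09% lower in the knockdown. The balance depends on the scaling, since 622 genes were higher and 598 lower after each array was centred on its median, against 729 and 398 on the deposited scale. Scaling to the hybridisation spike-ins moved the median difference of all tested genes from 0.04 to 0.33 and gave 1413 genes higher and 30 lower of 7820, and directions below are relative to the deposited scale. All 7 listed markers of embryonic stem cells passed the filter. Nanog was called higher, at 1040.0 and 1003.1 against 564.7 and 533.6, and the other 6 were not called. Their differences were 0.25 for Zfp42 (both knockdown arrays higher), 0.16 for Utf1 and 0.01 for Pou5f1. Dppa5a had -0.01, Tdgf1 -0.12 and Sox2 -0.22 (both knockdown arrays lower).

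All 10 members passed the filter, and 2 of them, Icam1 and Pim1, were called, both higher in the knockdown. None was called lower, and at an unadjusted p under 0.05 with limma 1 member, Pim3, was lower. At that unadjusted threshold 949 of all 7815 tested genes were lower. The 2 of 10 called higher stand beside 9.33% of all tested genes called in that direction. The median difference of the members was 0.16 and that of all tested genes 0.04, and 8 members had a difference above 0 and 2, Socs3 and Pim3, below 0. In 5 members both knockdown arrays lay above both control arrays, in 2 both lay below, and in 3 the groups overlapped. Over all tested genes, 34.3% had both knockdown arrays above and 25.9% had both below. With the spike-in scaling all 10 members lay above 0, and 7 lay above the shifted median of all genes.

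**Figure D1:**
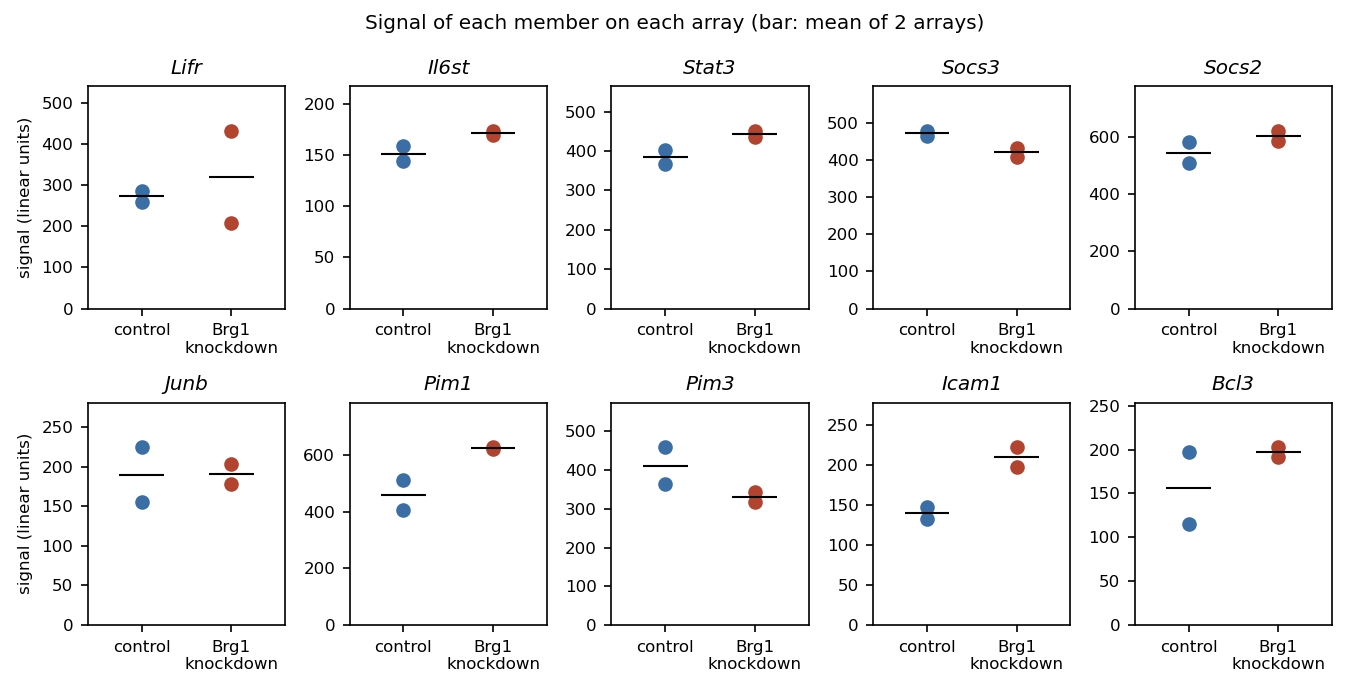
Signal of each of the 10 members on each array, on a linear axis starting at 0, for the probe set used for the gene. Points are arrays, control in blue and Brg1 knockdown in red, and the bar is the mean of the 2 arrays. The groups do not overlap in Icam1, Pim1, Il6st, Stat3, Socs2, Socs3 and Pim3. The knockdown points of Lifr (433.2 and 207.2) lie on both sides of the control points.

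The receptor genes did not pass the test. Lifr encodes the subunit that binds LIF first. Its brightest probe set read 433.2 (replicate 1) and 207.2 (replicate 2) in the knockdown and 258.7 and 286.9 in the control. The control values lie between those of the knockdown arrays, which are 1.00 apart on the log2 scale. Of the 7815 tested genes, 16 (0.205%), Lifr included, had knockdown arrays at least this far apart. The log2 difference was 0.13 ± 0.25 (SE), with a 95% interval of -0.42 to 0.69 (limma, adjusted p = 0.75). It was -0.36 without knockdown replicate 1 and 0.63 without knockdown replicate 2, and in the latter case it passed the test (adjusted p = 0.0104), so a single array decides its direction.

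A second Lifr probe set, which is dimmer, did not split the knockdown arrays in this way. It read 44.7 and 35.5 in the knockdown and 36.5 and 29.2 in the control, a log2 difference of 0.18 ± 0.17 (SE; adjusted p = 0.515 with every probe set fitted by itself). The other, below the filter of 23.9 signal units and not tested, read 24.8 and 27.4 against 21.8 and 21.2. No Lifr probe set was called.

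Il6st encodes gp130, the signalling subunit that LIFR shares with the receptors of other cytokines of the IL-6 family. Its brightest probe set read 169.3 and 174.1 in the knockdown and 158.9 and 143.9 in the control. The groups did not overlap, but the difference of 0.16 ± 0.11 (SE; 95% interval -0.09 to 0.42) did not pass the test (limma, adjusted p = 0.365). A second probe set had values of 85.0 and 75.2 against 77.7 and 87.8, with overlap and a difference of -0.04. The last had 48.9 and 45.7 against 38.2 and 37.2, without overlap and with a difference of 0.22. The 3 probe sets thus differ in sign, and none was called.

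Stat3 lay higher on both knockdown arrays and did not pass the test. The brightest probe set read 435.0 and 451.8 in the knockdown and 365.9 and 401.9 in the control, with no overlap. The log2 difference was 0.20 ± 0.09 (SE), a fold of 1.15, with a 95% interval of -0.01 to 0.41 (limma, adjusted p = 0.184). Another probe set had 386.7 and 345.0 against 313.5 and 286.2, again with no overlap. Its difference was 0.27 ± 0.11 (adjusted p = 0.144 with every probe set fitted by itself). The last was dim, below the filter, and overlapped at 12.2 and 24.7 against 14.8 and 17.0.

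Among the feedback inhibitors, Socs3 lay lower and Socs2 higher on the knockdown arrays, neither past the test as a gene. Socs3 encodes the inhibitor that binds gp130 and JAK and is a direct STAT3 target. The probe set used for the gene read 407.1 and 432.6 in the knockdown and 478.7 and 463.9 in the control, a log2 difference of -0.16 ± 0.09 (SE; 95% interval -0.36 to 0.04; limma, adjusted p = 0.261). The other probe sets are of the _x_at kind, whose probes can bind several transcripts. They had 420.1 and 380.9 against 469.3 and 532.1 (difference -0.31, adjusted p = 0.099 with every probe set fitted by itself), and 286.0 and 219.0 against 288.0 and 328.0 (difference -0.28, adjusted p = 0.232). In all 3 probe sets both knockdown arrays lay below both control arrays, and none passed the test. Over all probe sets above the filter, 27.8% had both knockdown arrays below. With the spike-in scaling the Socs3 difference was 0.16, below the shift of all genes of 0.33.

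Socs2 encodes a related inhibitor best known from growth hormone signalling. Its probe set for the gene read 622.7 and 586.4 in the knockdown and 507.8 and 581.8 in the control. The lowest knockdown array lies only just above the highest control array, and the difference of 0.15 ± 0.10 (SE; 95% interval -0.07 to 0.36) did not pass (limma, adjusted p = 0.328). The second probe set, of the _s_at kind, which can bind several transcripts of a gene or family, separated the groups more widely. It had 475.6 and 525.1 against 370.1 and 392.4, a difference of 0.37 ± 0.10, and was called higher with every probe set fitted by itself (adjusted p = 0.0498). Whether Socs2 is called therefore depends on the probe set.

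**Figure D2:**
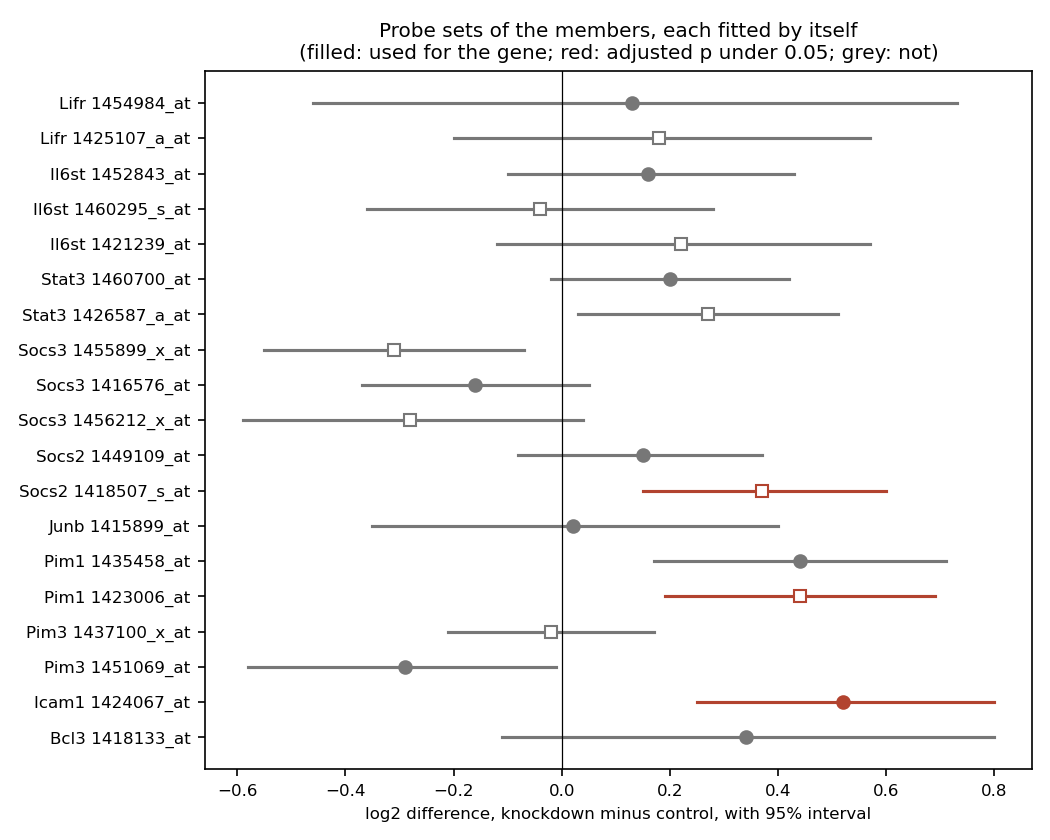
Log2 difference, knockdown minus control, of the 19 probe sets of the members above the filter, each fitted by itself with limma, with its 95% interval. Filled circles are the probe sets used for the genes, open squares the others, red marks an adjusted p under 0.05. The 3 Socs3 probe sets lie below 0 at -0.16 to -0.31, and the called ones belong to Socs2 (0.37), Pim1 (0.44) and Icam1 (0.52).

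Of the 22 probe sets, 3 lay below the filter, 1 each of Lifr, Stat3 and Pim3. Of the other 19, 3 were called higher and 0 lower when every probe set was fitted by itself with limma, where 5.76% of all probe sets tested were called higher and 3.37% lower. At an unadjusted p under 0.05 with limma, 5 of the 19 were higher and 2 lower. Of all 13576 probe sets tested, 2093 were higher and 1730 lower at that threshold. In 9 of the 19 both knockdown arrays lay above both control arrays, in 4 both lay below and in 6 the groups overlapped. Over all probe sets above the filter, 30.6% had both knockdown arrays above.

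Of the 3 PIM kinase genes, Pim1 rose in the knockdown, Pim3 was not called and Pim2 fell. PIM kinases are serine/threonine kinases that promote survival and growth and are regulated mainly through their abundance. Pim1 read 621.1 and 628.3 in the knockdown and 404.5 and 512.1 in the control. The knockdown arrays lie close together and both lie above both control arrays. The log2 difference was 0.44 ± 0.11 (SE), a fold of 1.36 (95% interval 0.19 to 0.69; limma, adjusted p = 0.031). The other Pim1 probe set had 255.0 and 241.3 against 169.3 and 186.4, with the same difference of 0.44 (adjusted p = 0.0441 with every probe set fitted by itself).

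Leaving out control replicate 1 ended the call of Pim1 (difference 0.28, adjusted p = 0.142), as did leaving out knockdown replicate 2 (0.43, adjusted p = 0.0757). It was also lost without the intensity trend (adjusted p = 0.0853), without the filter (0.0977), and with every probe set fitted by itself (0.0522).

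Pim3 had its knockdown arrays below its control arrays in the probe set used for the gene, at 343.3 and 317.2 against 363.5 and 459.6. The difference was -0.29 ± 0.12 (SE; 95% interval -0.56 to -0.03) and did not pass the test (limma, adjusted p = 0.129). Without control replicate 1 it was -0.45 and passed (adjusted p = 0.0326), and without control replicate 2 it was -0.13. A second probe set, of the _x_at kind, overlapped at 1378.1 and 1548.8 against 1517.3 and 1447.2, with a difference of -0.02 and a 95% interval of -0.21 to 0.17. The last was dim, at 12.0 and 4.9 against 12.9 and 5.9. Pim2, a listed target outside the 10 members, fell. It read 538.0 and 593.8 in the knockdown and 1005.0 and 979.3 in the control. The difference of Pim2 was -0.79 ± 0.09 (limma, adjusted p = 0.000551). With the spike-in scaling it was -0.47 ± 0.22 and no longer called (limma, adjusted p = 0.11). The median of all genes was 0.33 with that scaling. The differences between the 3 family members were not tested against each other.

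Icam1, which encodes a cell surface adhesion molecule induced by cytokines, had the largest difference among the members. Its single probe set read 197.5 and 222.2 in the knockdown and 132.9 and 146.9 in the control. The arrays within each group lie close together and the groups lie well apart. The log2 difference was 0.52 ± 0.12 (SE), a fold of 1.44 (95% interval 0.26 to 0.79; limma, adjusted p = 0.0191). Its adjusted p was 0.0881 with knockdown replicate 2 left out, 0.0675 with control replicate 1 left out and 0.0617 with no filter, so the call was lost in those fits, and the difference stayed above 0 in every alternative run, at 0.37 to 0.82.

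Icam1 is also made by cells other than stem cells, and so the markers of other cell types are given beside it. Of 8 listed fibroblast markers 7 were on the array and 6 of these, the collagen genes among them, lay below the filter. Their summed signal was 90.8 and 118.2 in the knockdown and 98.7 and 99.7 in the control, with overlap. Thy1, the 1 marker above the filter, read 20.8 and 29.0 against 36.7 and 48.3. The summed signal of 6 trophectoderm markers was 1315 and 1447 against 821.4 and 899.5. Krt8 was called higher, at 690.0 and 785.1 against 326.1 and 372.2, and is the brightest gene in that sum. Hand1 was called higher too, at 43.8 and 57.0 against 18.9 and 21.6. Krt18 (difference 0.19) and Eomes (0.32) were not called, and Cdx2 and Elf5 lay below the filter. The summed signal of 6 primitive endoderm markers was 200.9 and 238.3 against 165.2 and 179.9, with Gata4, Gata6, Sox17 and Sox7 below the filter. Of the 2 tested, Foxa2 was called higher, at 35.7 and 51.9 against 9.9 and 16.3. Dab2, at 85.8 and 92.1 against 99.6 and 96.9, was not called (difference -0.12). Hand1 and Foxa2 passed the filter of 23.9 signal units only through the knockdown arrays. The part of such cells in the rise of Icam1 was not tested, and in bulk RNA more cells of a type and more RNA per cell cannot be told apart.

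The transcription regulators Junb and Bcl3 did not pass the test, and in both the control arrays lay far apart. Junb, an AP-1 subunit induced rapidly by cytokines, read 177.8 and 203.4 in the knockdown and 154.9 and 224.7 in the control. Its control arrays enclose its knockdown arrays, and the difference of 0.02 ± 0.16 (SE) has a 95% interval of -0.33 to 0.38 (limma, adjusted p = 0.935). Bcl3, an atypical IκB protein that acts with NF-κB subunits in the nucleus, read 192.1 and 203.0 in the knockdown and 115.5 and 197.3 in the control. Control replicate 2 lies between the knockdown arrays and control replicate 1 lies far below them. The difference was 0.34 ± 0.19 (95% interval -0.08 to 0.77; limma, adjusted p = 0.251).

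For Bcl3 the value rests on which control array is used. With control replicate 1 left out the difference was 0.00 (adjusted p = 0.997), and with control replicate 2 left out it was 0.68 and passed the test (adjusted p = 0.00771). The control arrays are 0.68 apart on the log2 scale, a distance that 50 of the 7815 tested genes (0.64%) reached, Bcl3 included. For Junb they are 0.48 apart, which 194 genes (2.48%) reached. For Pim1 and Pim3, at 0.33 and 0.32, the shares were 9.29% and 9.51%. In Junb, Bcl3, Pim1 and Pim3 alike, control replicate 1 was the lower of the control arrays. The same held for Lifr, Stat3, Socs2 and Icam1, while in Il6st and Socs3 it was the higher. These orders are those of the probe sets used for the genes. Another probe set of Lifr, Il6st, Stat3, Socs3 and Pim3 had the opposite order. The share over all tested genes was not counted. The summed signal of the members was 3599 and 3426 in the knockdown and 2941 and 3419 in the control.

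**Figure D3:**
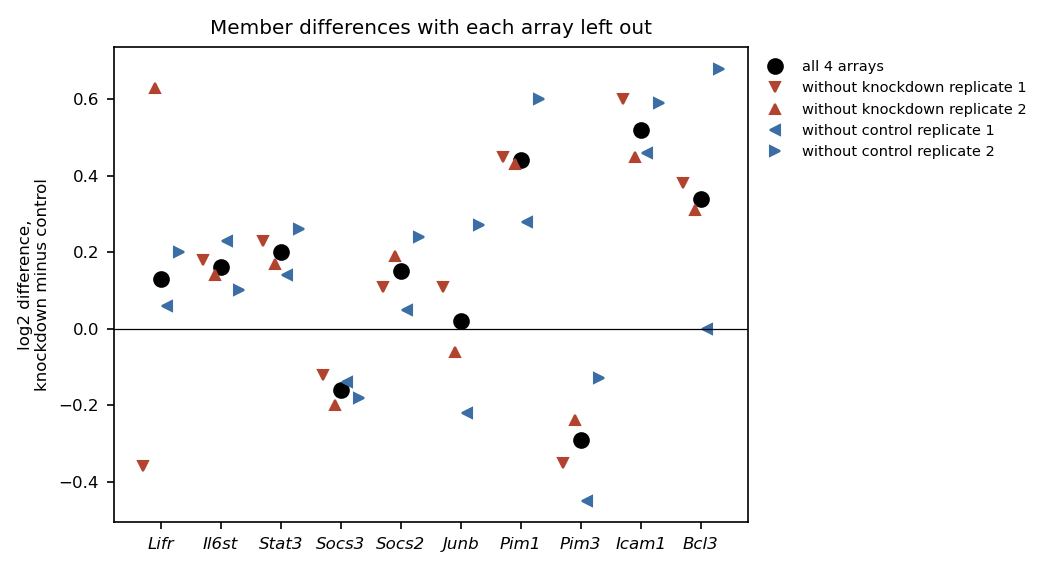
Log2 difference of each member with all 4 arrays (black) and with each array left out in turn (red for knockdown, blue for control arrays). Lifr runs from -0.36 to 0.63 with the knockdown array left out, and Bcl3 from 0.00 to 0.68 with the control array left out. Il6st, Stat3, Socs2, Pim1 and Icam1 stay above 0, and Socs3 and Pim3 below 0.

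The other genes of the pathway were taken from 6 lists ordered by role. Of 57 genes, 53 were on the array and 45 passed the filter, and of these 9 were called higher, 3 lower and 33 were not called, where 9.33% of all tested genes were called higher and 5.09% lower. Their median difference was 0.12, against 0.04 for all tested genes. The lists were chosen with earlier results of these data known, so these counts and medians describe the lists and test nothing. Among the ligands, none of the 2 tested genes was called by limma, and none had an unadjusted p under 0.05. Lif itself lay close to the filter, at 31.7 and 30.6 in the knockdown and 31.1 and 16.8 in the control (difference 0.24, adjusted p = 0.445). Mouse embryonic stem cells are usually given LIF in the medium, and the labels do not state the medium used here. Of the other receptor chains Cntfr alone passed the filter and was not called (difference 0.09, adjusted p = 0.75).

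Of 7 kinase and adaptor genes downstream of the receptor, 2 were called, both of them JAK genes and both higher. Over all tested genes 9.33% were called higher. Jak1, the main JAK at gp130, read 310.3 and 287.7 in the knockdown and 171.8 and 188.9 in the control. The log2 difference was 0.67 ± 0.11 (SE; limma, adjusted p = 0.00414), a fold of 1.59. Another Jak1 probe set gave 0.54 (adjusted p = 0.0382 with every probe set fitted by itself), and the call of the gene was kept in all 17 alternatives. Jak2 read 91.9 and 87.0 against 64.3 and 34.6, a difference of 0.69 ± 0.20 (limma, adjusted p = 0.0462). The control arrays of Jak2 lie far apart, and the call was lost in 7 of 16 alternatives, among them those that left out control replicate 2 (0.38, adjusted p = 0.224), knockdown replicate 1 (0.0705) or knockdown replicate 2 (0.0717). Tyk2 (0.17), Jak3 (0.32), Ptpn11 (0.12), Gab1 (0.17) and Grb2 (0.02) were not called.

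Of the 4 other tested STAT genes, Stat4, which acts mainly in lymphocytes, was called and fell. It was dim, at 25.2 and 23.9 in the knockdown and 59.2 and 72.2 in the control, a difference of -0.94 ± 0.16 (SE; limma, adjusted p = 0.00556). Being close to the filter its size depends on the pseudocount, with -1.13 for a smaller and -0.41 for a larger one. Stat2, Stat5b and Stat6 were not called (-0.13, 0.23 and -0.03).

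Of 12 tested inhibitors 2 were called, both higher, beside 9.33% of all tested genes called higher. Both belong to the PIAS family, proteins that add SUMO and inhibit activated STATs. Pias3, named for its inhibition of STAT3, read 147.0 and 159.5 in the knockdown and 90.3 and 88.5 in the control. Its difference was 0.66 ± 0.12 (SE; limma, adjusted p = 0.00767), and a second probe set gave 0.53 (adjusted p = 0.0492 with every probe set fitted by itself). Pias2 read 888.3 and 997.3 against 668.2 and 616.5, a difference of 0.54 ± 0.09 (adjusted p = 0.00532). The other Pias2 probe set had a difference of 0.37 that did not pass (adjusted p = 0.0966). Both genes kept their call in all 17 alternatives. Pias1 (-0.05) and Pias4 (0.18) were not called, nor were the phosphatase genes Ptpn1, Ptpn2 and Ptpn6 (-0.04, 0.03 and -0.49) or the other SOCS genes above the filter.

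Of 19 other tested STAT3 targets, 5 were called higher, 2 lower and 12 were not called, with a median of 0.22. Over all tested genes 9.33% were called higher and 5.09% lower, with a median of 0.04. Besides Pim2, the naming rule took Myc and Tfcp2l1, a transcription factor of naive pluripotency. Myc read 753.1 and 791.8 in the knockdown and 439.4 and 511.1 in the control. Tfcp2l1 read 279.3 and 315.3 against 176.7 and 131.3, and its other probe sets were below the filter, so with the mean of all probe sets it was 0.18 and not called (adjusted p = 0.453). The other calls were Klf4 (0.76), Jun (0.68) and Cebpd (0.74), which rose, and Irf1 (-0.57), which fell, all named after their values were seen. Jun read 204.1 and 189.8 against 115.5 and 115.4 and was called by a second probe set too (0.71, adjusted p = 0.0226 with every probe set fitted by itself), whereas Junb overlapped. Cebpd was no longer called when knockdown replicate 2 (adjusted p = 0.0725) or control replicate 1 (0.116) was left out, without the filter (0.0964), or with the mean of its probe sets, where its difference was 0.43 (0.116). Irf1 was not called with the spike-in scaling, at -0.26 where the median of all genes was 0.33 (limma, adjusted p = 0.375).

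**Figure D4:**
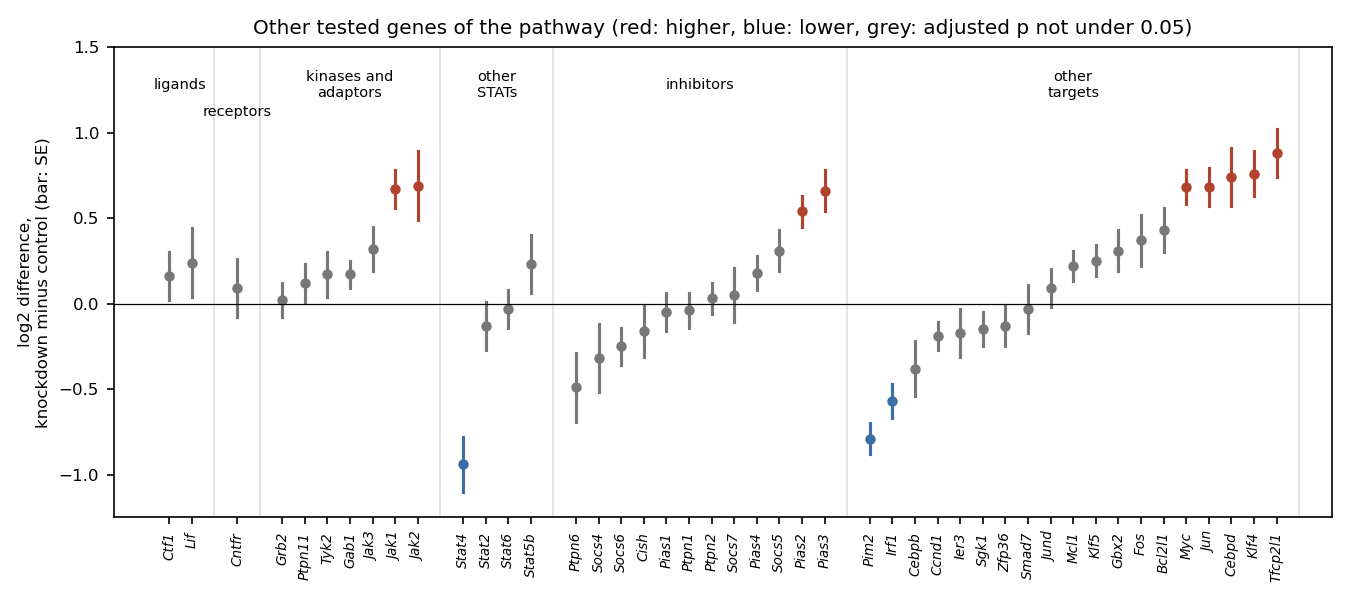
Log2 difference, knockdown minus control, of the 45 other pathway genes that passed the filter, grouped by role and ordered by size within a role, with SE bars. Red and blue mark genes called higher and lower. Jak1 (0.67), Jak2 (0.69), Pias2 (0.54) and Pias3 (0.66) stand among genes that were not called, and the targets run from Pim2 at -0.79 to Tfcp2l1 at 0.88.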

How the data were processed

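The authors deposited a linear signal intensity for every probe set of each array, made with the Affymetrix software GCOS, per the submitters' processing notes. For the software's version, algorithm and scaling target the sources used here give nothing, and detection calls were not used. Of the 22690 probe sets, 64 were controls, 20380 had 1 gene, 691 several and 1555 none. Symbols were updated by Entrez ID through RefSeq (GRCm38.p6), which held 20351 of them. Signals were analysed as log2(signal + 20.0), with 10% of the trimmed mean as pseudocount. The probe set with the highest mean stood for a gene, _x_at ones only where no other existed. Genes at or above the 40th percentile of probe sets (23.9 units) were tested, 7815 of 12393. limma 3.58.1 in R 4.3.3 was used with eBayes and an intensity trend, two-sided. The model was tested on simulated data with independent noise for each gene, a setting that cannot give its error rate on these arrays. Members, lists and tests were chosen with earlier results of these data known. Named genes are all members, the shRNA target and, from each further list, up to 3 called genes with the smallest adjusted p or else the gene with the smallest p. The alternatives changed the pseudocount, filter, normalization, variance model, probe set, threshold and block, and left out each array. The number of arrays limits the precision.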

Additional observations from a re-analysis of the deposited data

How the results depend on the processing

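Of 170 values of the members under alternatives, 151 kept their direction and their side of the threshold, 8 lost a call, 4 gained one and 7 changed sign. The sign changes were Lifr at -0.36 without knockdown replicate 1 (its values with each array left out ran from -0.36 to 0.63), Socs3 at 0.16 and Pim3 at 0.02 with the spike-in scaling, and Junb at -0.03 with median centring, -0.03 with quantile normalization, -0.06 with knockdown replicate 2 and -0.22 with control replicate 1 left out (range -0.22 to 0.27). Outside the members, Cntfr changed to -0.13 when its probe sets were averaged, -0.09 with knockdown replicate 2 and -0.02 with control replicate 1 left out (range -0.09 to 0.28). The cause was not tested. Without the filter, and at an adjusted p under 0.01, 3 members had an unadjusted p under 0.05 with limma. So did 2713 of all 12393 genes without the filter and 2446 of 7815 with it. The number of members called was 2. It was 0 in both of these cases, and 1 without the intensity trend. It ran from 1 to 3 with each array left out, and without control replicate 1 the 1 call was Pim3, lower. Over all genes the count was 1127, with 433 without the filter, 393 at an adjusted p under 0.01, and 601 to 1171 with each array left out. The count of other pathway genes called was 12, and 10 to 14 with each array left out. Of these, 9 were higher and 3 lower, and with the spike-in scaling 16 and 1, where 1413 of all 7820 tested genes were higher and 30 lower.

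The replicate number as a block gave 2 members called, 13 other pathway genes and 1187 genes in all, with the calls of Pim1 and Icam1 kept. Same-numbered arrays did not deviate together (r = -0.14 over 7815 tested genes, which are not independent), so the numbers are not taken as a pairing. A crossed block, chosen after seeing the data, gave 2 members and 1478 genes in all. Taking the brightest probe set with _x_at included, also chosen after seeing the data, gave -0.31 for Socs3 and -0.02 for Pim3, neither called.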
